A study of Rattus norvegicus with 2 samples.

Results

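Mitochondrial ribosomal protein genes were followed in rats that carry a transgene for human IAPP, the islet amyloid polypeptide, which beta cells secrete with insulin and which can form amyloid. The members were the array probes whose gene name, without its mark for predicted genes, was Mrpl or Mrps followed by a number. There were 71 such probes for 61 genes among 41012 gene probes with 35561 gene names. The members comprised 41 genes of the large ribosomal subunit and 19 of the small one. The remaining gene, Mrps36, is named in RefSeq as Kgd4, a component of the alpha-ketoglutarate dehydrogenase complex. Mrps18a and Mrps30 were counted with the large subunit, to which their proteins belong despite their names.

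The study compared HIP rats, which are transgenic for human IAPP, with nondiabetic wild-type rats. It used 4 extracts, 2 of each genotype. Each of 2 arrays carried 1 extract of each genotype, wild type in Cy3 and HIP in Cy5. Array 1 held wild type 1 and HIP 1, and array 2 held wild type 2 and HIP 2. Every ratio below is HIP over wild type on the log2 scale, so that 1 is a 2-fold higher signal in HIP. No array had the dyes exchanged, and so dye and genotype cannot be told apart. The labels used here give no promoter for the transgene, no strain, age, sex or diabetic state of the HIP animals, and no tissue beyond cell samples. They also do not say that the extracts came from separate animals, so a p-value covers no more than the spread among these samples, which may be technical.

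Mitochondria make the core subunits of the respiratory chain on ribosomes of their own. The ribosomal RNAs of these particles are encoded in mitochondrial DNA, whereas all of their proteins are encoded in the nucleus, made in the cytosol and imported. Some of the proteins have counterparts in bacteria, and others occur only in mitochondrial ribosomes. Beta cells rely on oxidative phosphorylation to couple glucose metabolism to insulin release. Of the 60 member genes placed in a subunit, 33 have a bacterial counterpart and 27 are specific to mitochondria.

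Promoter sequences were set beside the ratios, because nuclear genes for mitochondrial proteins are known targets of the factors NRF1, GABP (of the ETS family) and YY1. RefSeq promoter windows of 300 bases on the GRCr8 assembly, running from 250 bases before the gene start to 50 after it, were found for 50 of the 61 member genes. The 5 windows shown are those of the 4 genes that held the exact letters of a nuclear respiratory factor 1 (NRF1) motif and of 1 gene, Mrpl46, that faces another mitochondrial ribosomal protein gene. Capitals mark the 10 letters of the NRF1 motif, the same on both strands, in the first 4 windows, and in Mrps18b also CTTCCGG, the reverse complement of the ETS motif CCGGAAG. In Mrpl46 they mark the YY1 motif AAGATGGCG. The windows are chr1:169575650-169575949 on the minus strand for Mrpl17, chr17:55260401-55260700 on the plus strand for Mrpl32, chr9:88554800-88555099 on the plus strand for Mrpl44, chr20:2842756-2843055 on the plus strand for Mrps18b and chr1:142116981-142117280 on the minus strand for Mrpl46. Each is written 5′ to 3′ in the direction of its gene.
Mrpl17: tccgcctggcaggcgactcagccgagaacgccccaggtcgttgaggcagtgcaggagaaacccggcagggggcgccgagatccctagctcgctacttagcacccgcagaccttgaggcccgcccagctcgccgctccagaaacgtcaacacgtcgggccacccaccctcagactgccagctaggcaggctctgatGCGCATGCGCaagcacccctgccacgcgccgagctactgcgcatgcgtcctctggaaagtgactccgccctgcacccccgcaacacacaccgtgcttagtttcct
Mrpl32: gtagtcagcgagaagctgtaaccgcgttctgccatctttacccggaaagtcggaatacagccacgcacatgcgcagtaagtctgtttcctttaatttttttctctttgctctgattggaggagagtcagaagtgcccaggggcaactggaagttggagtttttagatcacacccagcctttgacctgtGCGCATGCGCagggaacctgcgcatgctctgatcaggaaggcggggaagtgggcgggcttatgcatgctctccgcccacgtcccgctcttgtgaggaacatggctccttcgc
Mrpl44: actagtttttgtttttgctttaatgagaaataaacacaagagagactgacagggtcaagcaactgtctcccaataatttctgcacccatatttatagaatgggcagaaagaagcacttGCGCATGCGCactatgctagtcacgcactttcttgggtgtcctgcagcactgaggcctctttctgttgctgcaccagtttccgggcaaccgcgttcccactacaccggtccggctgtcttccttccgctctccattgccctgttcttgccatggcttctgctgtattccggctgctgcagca
Mrps18b: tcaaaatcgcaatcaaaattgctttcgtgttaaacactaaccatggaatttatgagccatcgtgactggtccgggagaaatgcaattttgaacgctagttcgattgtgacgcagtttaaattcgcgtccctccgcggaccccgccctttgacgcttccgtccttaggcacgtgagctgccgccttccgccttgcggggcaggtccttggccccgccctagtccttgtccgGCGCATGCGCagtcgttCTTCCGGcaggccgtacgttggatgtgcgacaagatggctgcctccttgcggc
Mrpl46: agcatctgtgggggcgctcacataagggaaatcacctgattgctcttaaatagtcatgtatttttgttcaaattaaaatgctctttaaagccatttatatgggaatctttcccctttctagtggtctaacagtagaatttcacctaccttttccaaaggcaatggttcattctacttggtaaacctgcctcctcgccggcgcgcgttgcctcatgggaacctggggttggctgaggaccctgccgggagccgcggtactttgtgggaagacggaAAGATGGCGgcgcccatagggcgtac
The NRF1 letters begin 55 bases before the start of Mrpl17, 62 before that of Mrpl32, 132 before that of Mrpl44 and 20 before that of Mrps18b. In Mrps18b the ETS letters begin 3 bases before the start, and in Mrpl46 the YY1 letters begin 24 bases after it.

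The NRF1 letters were present on either strand in 4 of the 50 member genes (8%), against 1.16% of 19005 protein-coding genes and 0.954% of all 27457 genes. A gene with several windows was counted once if any of them matched. The ETS letters were in 16 (32%), against 11.6% of protein-coding and 9.63% of all genes. The YY1 letters were in 9 (18%), against 2.33% and 1.99%, and the SP1 letters GGGCGG in 27 (54%), against 44.1% and 36.0%. Each of the 4 shares was above that of protein-coding genes, a difference that was not tested. Matches were counted on both strands, and motifs may overlap, as the ETS letters can share their last 3 bases with the first 3 of YY1. The median member gene held 18 CpG dinucleotides in its richest window, against 12 in protein-coding genes and 8 in all genes. These are matches of letters in a fixed window and not evidence of binding.

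**Figure D1:**
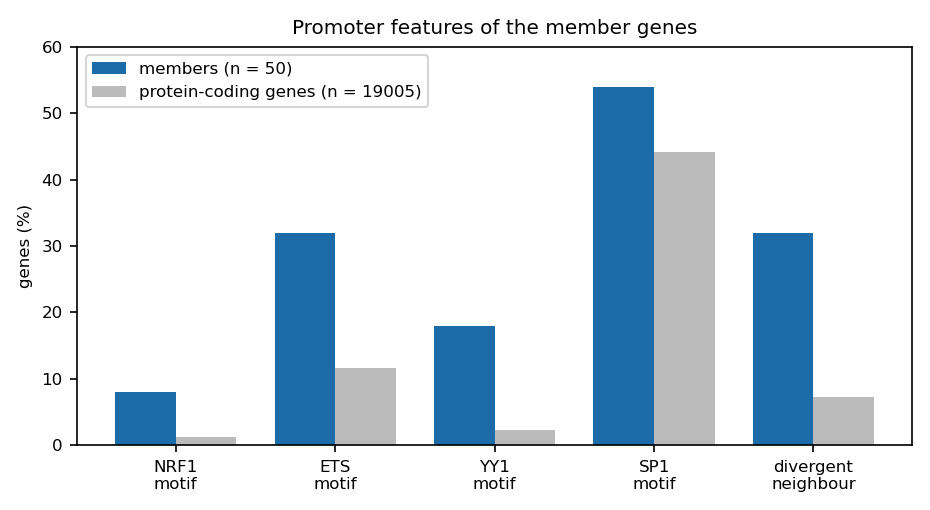
Share of genes (vertical axis, percent) that held each motif in a promoter window or faced a divergent protein-coding neighbour, for 50 mitochondrial ribosomal protein genes and 19005 protein-coding genes. The member bar is the taller of each pair, at 8%, 32%, 18%, 54% and 32%.

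Many of the member genes also lay head to head with another gene. For 16 of the 50 (32%), a protein-coding gene started on the opposite strand within 1000 bases, against 7.22% of protein-coding genes. One such pair joined Mrpl46 with Mrps11, whose starts are 234 bases apart, so that a large and a small subunit protein face each other. The Mrpl46 probe had ratios of -0.08 and -0.69 on arrays 1 and 2, and the Mrps11 probe, described under another name on the array, had -1.57 and 1.94. In 12 pairs both genes had a measured probe, and the mean ratios shared a sign in 4 of them. Mrps12 had no promoter window and was not among these pairs. In the RefSeq table, 92 bases separate it from Sars2, the mitochondrial seryl-tRNA synthetase, and their relative direction was not examined. The ratios were 2.89 and 0.80 for Mrps12 and 4.01 and 0.56 for Sars2. Sars2 was named after its values were seen, and a link between the 2 genes was not tested.

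Of the 71 member probes, 60 (56 genes) had a signal well above background in 1 dye or both on each array and were tested, and 11 were not. A total of 52 were well above background in both dyes on both arrays. The genes without a tested probe were Mrpl4, Mrpl15, Mrpl47, Mrpl50 and Mrps35. By extract, 63 member probes in wild type 1, 61 in HIP 1, 54 in wild type 2 and 62 in HIP 2 were well above background. Wild type 2 was thus the extract with the fewest, and it was also the dimmest over all gene probes, with a median spot 2.94 times its local background against 5.10 to 5.26 in the other extracts. Olfactory receptor probes, which serve here as genes of another tissue, were well above background in 77.4% to 90.1% of cases by extract, against 76.1% to 88.7% of member probes. The scanner's detection mark therefore did not separate the members from these receptors.

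The cell types in the extracts were read from marker genes. Ins2 had processed signals of 96063 and 100505 in wild type 1 and 2 and of 46151 and 58001 in HIP 1 and 2. The summed signal of 5 islet markers, of which 3 were well above background in all extracts, was 141724 and 151772 in wild type and 80491 and 82647 in HIP. The summed signal of 5 acinar markers was 13765, 23260, 11392 and 32394 in wild type 1, wild type 2, HIP 1 and HIP 2. The sums of 4 ductal markers lay between 4647 and 7814, and those of 2 leukocyte markers between 803 and 1131 except in HIP 1, where it was 3649. The islet sum was lower in both HIP extracts, but most of it came from Ins1 and Ins2. Ins1 had 43697 and 47873 in wild type 1 and 2 and 19073 and 23446 in HIP 1 and 2. The remaining islet markers did not share that direction. Iapp and Sst were dim, at 85.5 and 66.2 in wild type and 211 and 127 in HIP for Iapp, and at 61.2 and 49.8 in wild type and 83.5 and 78.7 in HIP for Sst. Gcg, the glucagon gene of alpha cells, had 1817 for wild type beside 14973 for HIP on array 1, and 3278 beside 995 on array 2. The acinar markers also differed among themselves, as Prss1 had 90.6, 130, 508 and 23259, and Cela1 9602, 4606, 19723 and 5837, each listed as the array 1 pair and then the array 2 pair with wild type first. The part of these markers in the member ratios was not tested. With bulk extracts, fewer cells of a type and less RNA per cell cannot be told apart.

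No member probe passed the limma test at a Benjamini-Hochberg adjusted p of 0.05, out of 60 tested. Over all 33664 probes tested the count was also 0 (percent called 0), while 1102 probes had an unadjusted p under 0.05. Among these were 2 member probes, both of Mrpl17 and both higher in HIP, against 1.75% of all probes higher and 1.53% lower at that threshold. The lowest adjusted p of any probe was 0.942 by limma with Benjamini-Hochberg adjustment. The count of member calls was also 0 under each of the other fits tried, including those with a trended prior, a robust prior and the 4 channels fitted separately. A sign-flip test over 2 arrays cannot give a p below 0.5, and the fit has 1 residual degree of freedom. The values that follow are therefore descriptions of 2 pairs of extracts.

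As a group the member ratios centred near 0. The median mean ratio was 0.071 over 60 member probes and 0.023 over all probes. By array, the member median was 0.12 on array 1 and -0.01 on array 2, and 37 and 28 of the 60 probes were above 0. The range of the mean ratio ran from -1.74 to 3.15. The ratio lay within 0.5 of 0 on each array for 12 of the 60. At least a 2-fold difference was seen in 21 probes on array 1 (35%, against 30.5% of all probes) and in 19 on array 2 (31.7%, against 27.99%).

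The arrays seldom gave a probe the same large difference, among the members as among all probes. A 2-fold higher signal in HIP on both arrays was found for 2 member probes (3.33%), both of Mrpl17, against 2.57% of all probes tested. A 2-fold lower signal on both was found for 0 members, against 2.44% of all probes. By the scanner's own processed ratio these counts were 4 higher and 1 lower (5.73% and 4.68% of all probes). The 4 were both Mrpl17 probes, Mrps12 (3.51 and 1.34) and 1 probe of Mrpl34 (1.11 and 1.47). That Mrpl34 probe was not well above background in wild type 2. A 2-fold difference in opposite directions was found for 7 member probes (11.7%), against 5.42% of all probes. The ratio had the same sign on both arrays for 25 of 60 member probes (41.7%), 15 above 0 and 10 below, against 49.8% of all probes. Across the 60 probes, array 1 and array 2 were related with r = -0.25 (Pearson) and rho = -0.28 (Spearman), and over all probes r was -0.01. The points share 4 extracts and some share a gene, so the correlation is a description.

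**Figure D2:**
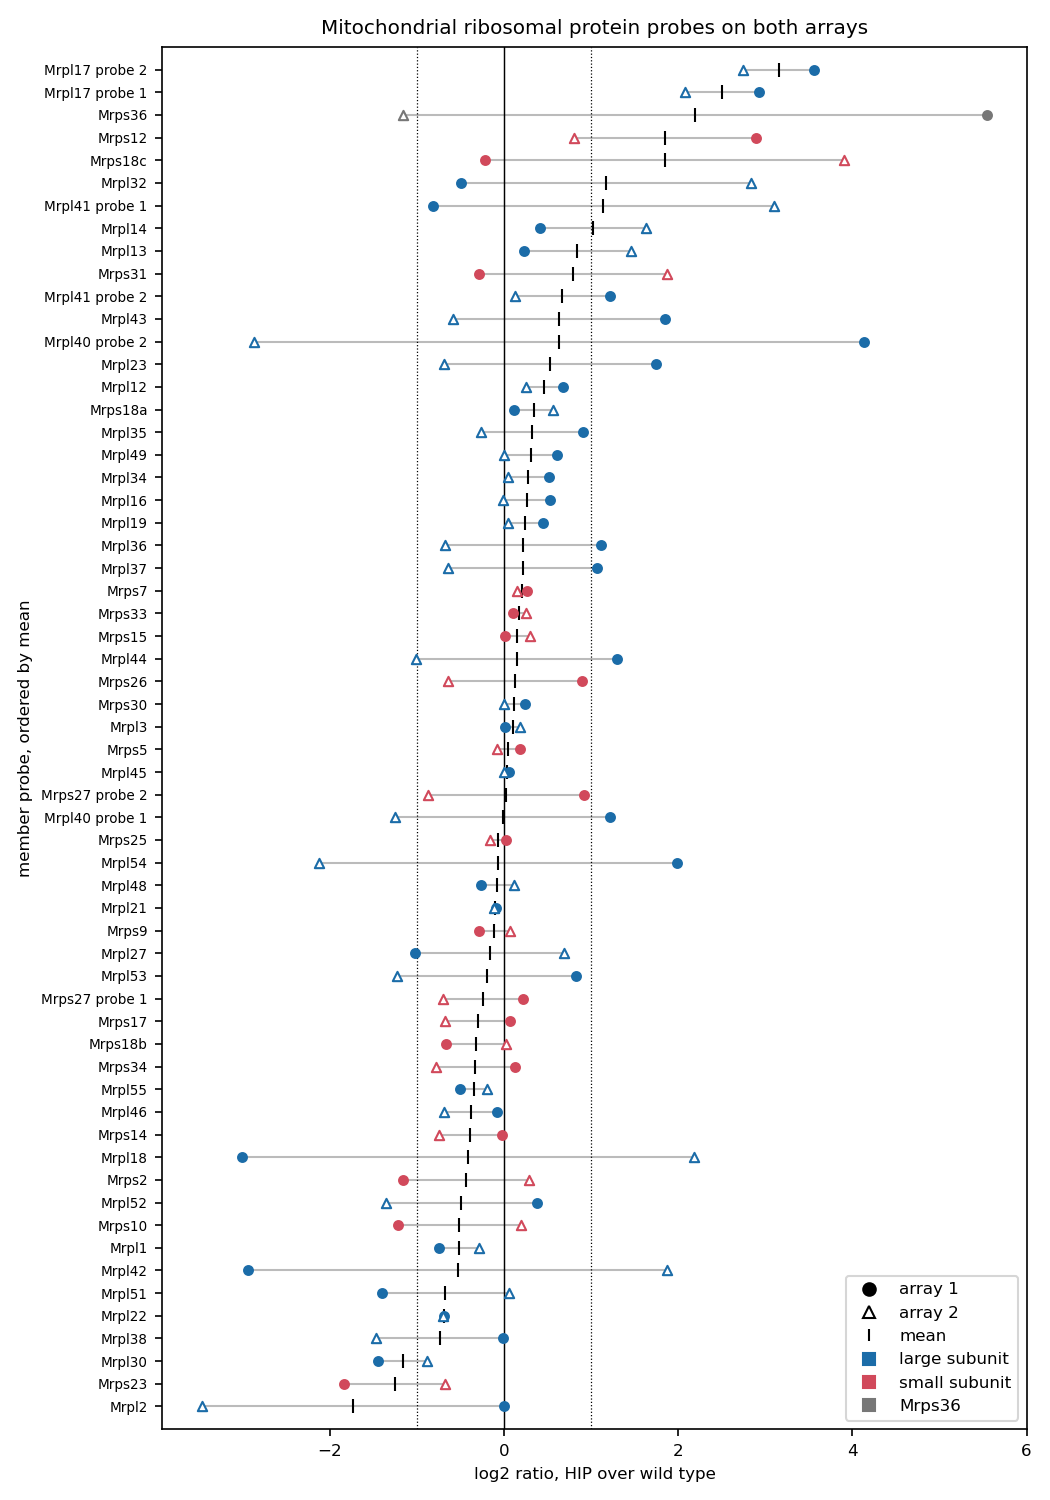
Log2 ratio of HIP over wild type (horizontal axis) for each of the 60 tested probes, ordered by the mean of 2 arrays; circles are array 1, triangles array 2, ticks the mean, and dotted lines 2-fold. The Mrpl17 probes lie beyond 2-fold to the right on both arrays, while several grey bars, such as that of Mrpl40 probe 2, cross 0 from 4.14 to -2.88.

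**Figure D3:**
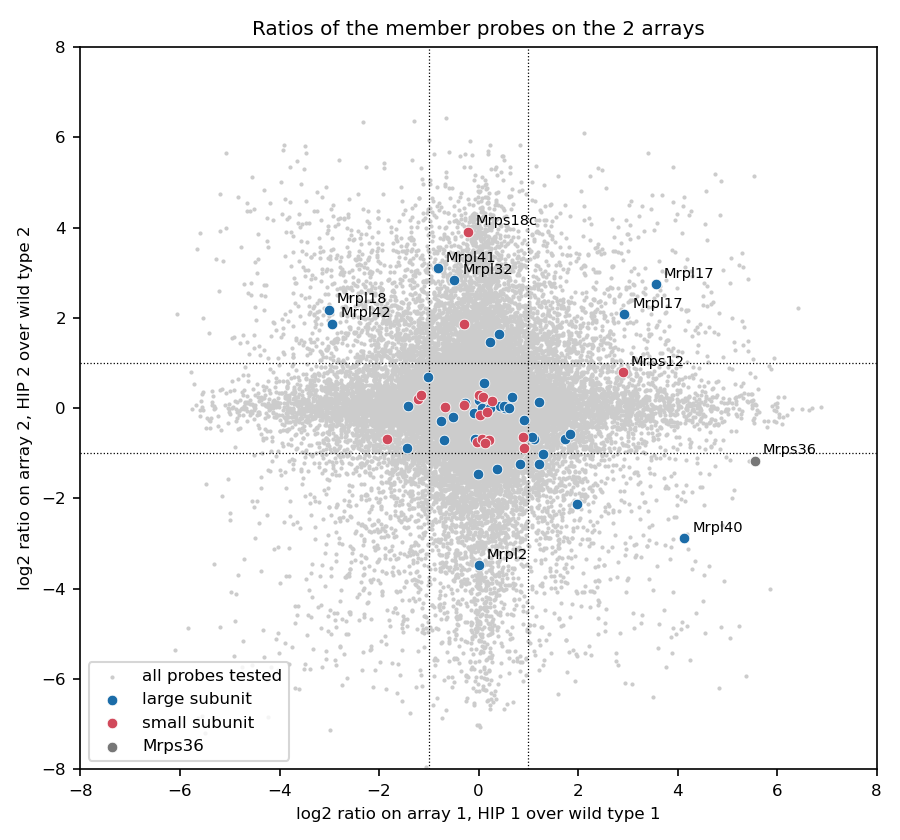
Log2 ratio on array 1 (horizontal axis) against array 2 (vertical axis) for 60 member probes over 33664 tested probes in grey, with dotted lines at 2-fold. Both Mrpl17 probes sit in the upper right corner, Mrps36 and Mrpl40 at the lower right, and Mrpl18 and Mrpl42 at the upper left.

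Extracts of the same genotype differed in the members by amounts similar to those between extracts of different genotypes. The median absolute log2 difference over the 60 probes was 0.64 between wild type 1 and HIP 1 and 0.68 between wild type 2 and HIP 2. It was 0.61 between the wild-type extracts and 0.81 between the HIP extracts, and 0.50 and 0.66 between wild type 1 and HIP 2 and between HIP 1 and wild type 2. For all probes these 6 values lay between 0.44 and 0.54. The HIP extracts were thus the pair furthest apart in the members, of the 6 pairs compared, with 25 of 60 probes at least 2-fold apart. The quantile-normalised levels of both HIP extracts were above those of both wild-type extracts for 6 member probes, against 15.8% of all probes, and below both for another 6, against 15.1%. The first were both probes of Mrpl17, Mrps12, Mrpl14, Mrps33 (kept through its HIP dye alone) and 1 probe of Mrpl41. The second were Mrpl2, Mrpl21, Mrpl30, Mrpl38, Mrpl46 and Mrpl55.

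Among proteins at the rim of the tunnel through which new chains leave, Mrpl17 had the highest mean ratio of the 60 tested member probes. Mrpl17 is the counterpart of bacterial L17. Its probe 2 (A_44_P437941) had processed signals of 664 in wild type 1, 12083 in HIP 1, 294 in wild type 2 and 4488 in HIP 2. Its probe 1 (A_42_P674683), whose target lies 103 bases away, had 1892, 16366, 1104 and 5739 in the same order. In both probes each HIP extract was above both wild-type extracts. The log2 ratio was 3.56 and 2.74 for probe 2 (3.15 ± 0.58, SD, n = 2) and 2.93 and 2.08 for probe 1 (2.50 ± 0.60, SD, n = 2). Each had an adjusted p of 0.942 by limma with Benjamini-Hochberg adjustment, so neither passed. Under the other settings tried, the mean stayed between 2.08 and 4.06 for the pair of probes, single arrays included. RefSeq lists 2 pseudogenes of Mrpl17, and the array's probe sequences were not used here, so signal from such copies cannot be told apart.

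The remaining rim proteins among the tested members did not share these values. Proteins under other array names were not grouped by structural role, among them Mrpl24, at 1.66 and 3.87. Mrpl22, at the tunnel wall, had 3897, 2329, 2254 and 1141 in wild type 1 and HIP 1 and then wild type 2 and HIP 2, with ratios of -0.69 and -0.71. Mrpl23 had 1.74 and -0.69, with opposite signs. Mrpl45, which anchors the ribosome to the inner membrane, had 0.06 and 0.00, among the values closest to 0 of any member. The 5 rim probes among the members had a median of 0.53, and the 2 that were 2-fold higher on both arrays were those of Mrpl17.

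**Figure D4:**
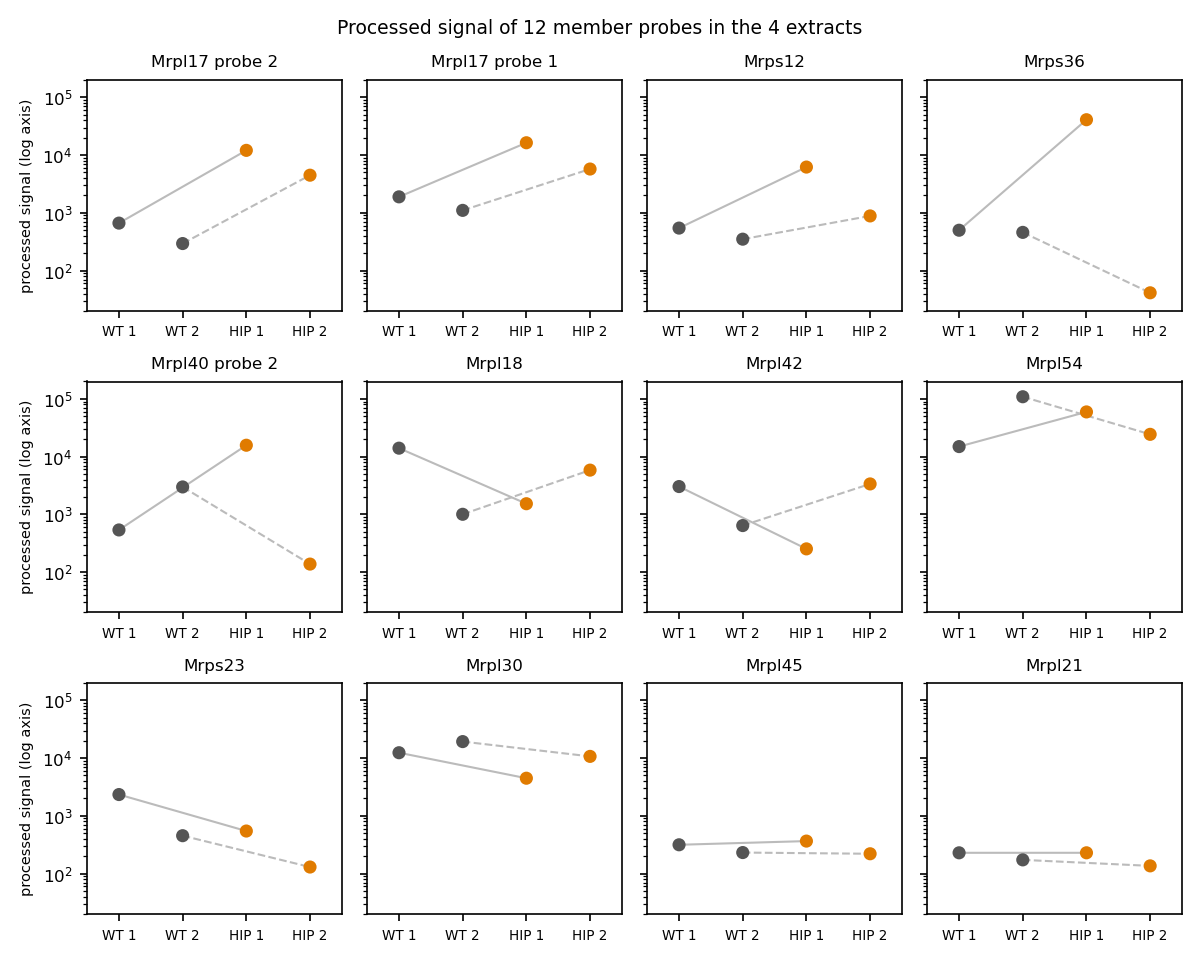
Processed signal (vertical axis, log scale) of 12 member probes in the 4 extracts; grey points are wild type, orange points HIP, the solid line joins the extracts of array 1 and the dashed line those of array 2. The lines run upward together for Mrpl17 and Mrps12, cross or diverge for Mrps36, Mrpl40, Mrpl18, Mrpl42 and Mrpl54, and lie nearly flat for Mrpl45.

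At the functional centres of the ribosome, values near 0 stood beside wide ones. Mrps12, the counterpart of bacterial S12 in the decoding centre, had 544 in wild type 1, 6206 in HIP 1, 350 in wild type 2 and 884 in HIP 2. Both HIP values exceeded both wild-type values, and the ratios were 2.89 and 0.80 (1.84 ± 1.48, SD, n = 2; adjusted p 0.942 by limma with Benjamini-Hochberg adjustment). By the scanner's own processed ratio Mrps12 had 3.51 and 1.34. Mrps5, also of the small subunit, had 0.18 and -0.09. Its signals were low, at 68, 86, 143 and 84 in wild type 1 and HIP 1 and then wild type 2 and HIP 2. Its scanner ratios were 0.33 and -0.76. Mrpl3, a neighbour of the peptidyl transferase centre, had 0.01 and 0.18, and it was not well above background in wild type 2. Mrpl2, another protein next to that centre, had 3415, 3580, 33697 and 2660 in wild type 1 and HIP 1 and then wild type 2 and HIP 2. Wild type 2 alone stood high, and the ratios were -0.00 and -3.47, which made Mrpl2 the member with the lowest mean (-1.74). Mrpl12, which forms the flexible stalk that engages translation factors, had 0.67 and 0.26.

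The central protuberance is the crown of the large subunit, and in mammals it includes several mitochondria-specific proteins. Its 8 tested probes had a median of -0.37, with 0 probes 2-fold in the same direction on both arrays. In opposite directions there were 3, including both probes of Mrpl40, against 5.42% of all probes. The grouping by structural role was chosen after the values were seen, so this count is a description. Mrpl40 probe 2 (A_44_P869196) had 536 in wild type 1, 15739 in HIP 1, 2982 in wild type 2 and 137 in HIP 2. The highest and the lowest values were thus both from HIP extracts, and the ratios were 4.14 and -2.88. Mrpl40 probe 1 (A_42_P719101), with a target 2836 bases away on the genome, had 1.22 and -1.25, with the same signs. Mrpl18 had 14000, 1527, 1002 and 5832 in the same order of extracts, with ratios of -3.01 and 2.18. Mrpl38 had -0.01 and -1.47.

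The other members beyond 2-fold in opposite directions were Mrpl42, Mrpl44, Mrpl54 and Mrps36. Mrpl54 was bright in all extracts, at 14918 in wild type 1, 59436 in HIP 1, 108899 in wild type 2 and 24315 in HIP 2, with ratios of 1.98 and -2.13. Both HIP values lay between the wild-type ones. Mrpl42 had 3030, 252, 639 and 3363, with ratios of -2.94 and 1.87. Mrpl44, whose protein has an RNase III-like fold, had ratios of 1.30 and -1.01. Mrps36 had 500, 41024, 459 and 41, so that the HIP extracts were the highest and the lowest and the wild-type extracts were alike, and its ratios were 5.55 and -1.16. Of the 7 opposite probes, 5 were higher in HIP on array 1 and lower on array 2, and 2 the reverse.

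Among members with ratios below 0 on both arrays, none was 2-fold lower on both by the loess-normalised ratio. Mrpl30, the counterpart of bacterial L30, had 12397, 4484, 19323 and 10710 in wild type 1 and HIP 1 and then wild type 2 and HIP 2. Both HIP values were below both wild-type values, and the ratios were -1.44 and -0.88 (mean -1.16 ± 0.40, SD, n = 2; adjusted p 0.942 by limma with Benjamini-Hochberg adjustment). Mrps23, a mitochondria-specific protein of the small subunit, had 2338, 546, 453 and 130, with ratios of -1.84 and -0.68 (mean -1.26 ± 0.82, SD, n = 2). By the scanner's own processed ratio it had -2.10 and -1.80, and it was the 1 member 2-fold lower on both arrays by that measure. In the authors' deposited table it had -2.18 and -1.68, on each array between the scanner's ratios of its tested and its untested probe. HIP 1 was above wild type 2, so the groups overlapped. RefSeq lists 9 pseudogenes of Mrpl30, the most of any member, and 36 for 20 member genes in all.

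Several members had a large value on 1 array alone. Mrps18c, one of the mammalian proteins related to bacterial S18, had 99, 67, 228 and 10030 in wild type 1 and HIP 1 and then wild type 2 and HIP 2, and ratios of -0.22 and 3.91. Mrpl32, which is trimmed by a mitochondrial protease before it joins the ribosome, had 2579, 1836, 201 and 4117 and ratios of -0.49 and 2.83. Mrps31 had -0.28 and 1.87. In each of these, HIP 2 stood above the other extracts. Mrpl14 and Mrpl13, both with bacterial counterparts, had 0.41 and 1.63 and 0.22 and 1.46, on the same side of 0. Among probes well above background in both dyes, the 3 whose ratio furthest from 0 was smallest in size were Mrpl45, Mrpl21 (-0.09 and -0.11) and Mrps25 (0.03 and -0.16).

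Other members had a difference of 2-fold on 1 array alone. Mrpl53 had 2074, 4033, 59109 and 24791 in wild type 1 and HIP 1 and then wild type 2 and HIP 2. The arrays thus stood further apart than the genotypes for this gene, and the ratios were 0.83 and -1.23. Mrpl43 had 1.84 and -0.58, Mrpl36 had 1.12 and -0.68, and Mrpl37 had 1.07 and -0.65, each above 0 on array 1 alone. Mrps2 and Mrps10, the counterparts of bacterial S2 and S10, had -1.16 and 0.28 and -1.22 and 0.20. Mrpl27, next to the peptidyl transferase centre, had -1.02 and 0.69, and Mrpl51 had -1.41 and 0.05. Mrpl52, of the central protuberance, had 0.38 and -1.36. The relatives of Mrps18c had ratios of 0.11 and 0.56 for Mrps18a and -0.67 and 0.02 for Mrps18b. HIP 1 was not well above background for Mrps18b, and its scanner ratios were -2.32 and -0.28.

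Probes of the same gene gave a further view of the spread. Of the 4 genes with 2 tested probes, Mrpl17, Mrpl40 and Mrps27 had the same signs in both probes on each array, and Mrpl41 did not on array 1. Mrpl41 probe 1 (A_44_P1019454) had -0.82 and 3.10, and probe 2 (A_44_P166482), with a target 159 bases away, had 1.21 and 0.12. Mrps27, a pentatricopeptide repeat protein, had 0.22 and -0.70 for probe 1 and 0.92 and -0.88 for probe 2. The second Mrpl18 probe was not tested because wild type 2 and HIP 2 were dim in it, and it had 112, 17399, 17 and 32 in wild type 1 and HIP 1 and then wild type 2 and HIP 2. On array 1 its ratio was 5.20, while that of the tested Mrpl18 probe was -3.01. Mrpl50, also not tested, likewise had 1 bright extract, with 46, 15069, 20 and 13.

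Mrps33 was the tested member measured in HIP only. Neither wild-type extract was well above background for this probe, and both HIP extracts were. On normalised levels its mean ratio was 1.13-fold, HIP over wild type, which is no bound because the wild-type signals were dim. The probe passed the filter through its HIP dye alone, so its direction was favoured by the filter. It is also open to dye bias because dyes were not swapped. Its adjusted p was 0.993 by limma with Benjamini-Hochberg adjustment.

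By subunit, the 40 tested probes of the large subunit had a median of 0.13 and a range from -1.74 to 3.15. The 19 of the small subunit had a median of -0.07 and a range from -1.26 to 1.84, and the median was -0.49 relative to all probes under median centring and 0.020 to 0.027 on single arrays. Both probes that were 2-fold higher and 6 of the 7 opposite ones belonged to the large subunit, and the other was Mrps36. These made 5% and 15% of the large subunit probes, against 2.57% and 5.42% of all probes. The small subunit had 0 of 19 in either class, and 19 probes are few for shares of the size found over all probes. The difference between the subunits was not tested. By origin, 18 of 31 probes for proteins with a bacterial counterpart (58.1%) had the same sign on both arrays, against 7 of 28 (25.0%) for mitochondria-specific proteins. The Pearson r between arrays was 0.13 across the former and -0.67 across the latter, as a description over probes that share the 4 extracts. The background share for the same sign was 49.8%.

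Beyond the members, 13 tested probes under 11 other array names were described there as mitochondrial ribosomal proteins or are known as such under a newer symbol. The identity of some is uncertain, and 1 of them, described as similar to protein S24, is listed in RefSeq as Urgcp. Mrpl24 had 1.66 and 3.87, and Mrpl58, named Ict1 on the array and known as a peptidyl-tRNA hydrolase within the ribosome, had 2.65 and 1.71. A probe described as similar to protein S16 (LOC683012), with no match in the RefSeq table, had 3.88 and 0.81. Both probes of Mrpl9 lay near 0, at 0.07 and 0.04 and at -0.04 and -0.06. Of the 13 probes, 2 were 2-fold higher on both arrays (2.57% of all probes), 0 were 2-fold lower (2.44%) and 1, of Mrps11, was opposite (5.42%).

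The genes that build, feed and regulate these ribosomes were read from 7 lists. Of 19 tested probes for ribosome assembly and rRNA modification, 4 were 2-fold higher on both arrays and 0 lower, and 3 were opposite, against 2.57%, 2.44% and 5.42% of all probes. The 4 were Mrm1, which methylates the large mitochondrial rRNA (4.20 and 3.31), Ddx28 and Dhx30, RNA helicases of ribosome assembly (2.72 and 3.78, and 1.17 and 2.00), and Mterf4, the partner of the rRNA methyltransferase Nsun4 (1.66 and 1.23). The Mterf4 probe was not well above background in wild type 2, with 78.3 and 1038 in wild type and HIP on array 1 and 62.6 and 714 on array 2, so its ratio on array 2 rests on a dim signal. Of 13 probes for translation factors, 2 were higher and 0 lower. These were Tufm, which delivers charged tRNAs to the ribosome (1.54 and 2.68), and 1 of 3 probes of Mrrf, which recycles ribosomes (2.69 and 1.09). The other Mrrf probes had 2.57 and 0.80, and 0.08 and -0.66.

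Of 21 probes for mitochondrial tRNA charging, 1 was 2-fold higher, 0 lower and 2 opposite, against 2.57%, 2.44% and 5.42% of all probes. The higher probe was of the prolyl-tRNA synthetase Pars2 (1.51 and 2.76), whose other probe had 0.73 and 0.38. Of 16 probes for mitochondrial DNA expression, 0 were 2-fold in the same direction and 1 was opposite. That 1 was Tfam, the packaging and transcription factor of mitochondrial DNA, at -2.82 and 4.07. HIP 1 was not well above background for it, with 1615 in wild type and 41.0 in HIP on array 1. Its ratio on array 1 thus rests on a dim signal. Of 10 probes for regulators of biogenesis, 2 were 2-fold higher and 0 lower. These were Nrf1, the factor whose letters were searched in the promoters (1.69 and 2.36), and 1 of 2 probes of Gabpb1, a subunit of an ETS family factor (3.76 and 1.48, against -0.31 and 1.96 for the other). Wild type 2 was not well above background for either Gabpb1 probe, and the first had 45.6 and 4399 on array 1 and 18.5 and 685 on array 2, wild type first. The 4 member genes that held the NRF1 letters had mean ratios of 2.50 and 3.15 for the Mrpl17 probes, 1.17 for Mrpl32, 0.14 for Mrpl44 and -0.32 for Mrps18b. For Mrpl32, Mrpl44 and Mrps18b the arrays had opposite signs. A link between Nrf1 and the ratios of these genes was not tested.

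Small lists completed the set. The 2 tested probes for small subunit proteins with other symbols had 0 in each class, and of 2 for the large subunit, Mrpl58 was higher and Gadd45gip1 opposite (1.05 and -2.24). Over all lists and the other array names, 95 probes had a median mean ratio of 0.13, with 11.6% 2-fold higher on both arrays (2.57% of all probes), 0% lower (2.44%) and 8.42% opposite (5.42%). Of the 11 higher probes, 9 were well above background in both dyes on both arrays. By the scanner's own processed ratio, 14 of the 95 were higher on both arrays (14.7%, against 5.73% of all probes) and 4 lower (4.21%, against 4.68%). By that ratio 10 were opposite, against 10.8% of all probes. None of these probes passed the limma test with Benjamini-Hochberg adjustment, and 0 of 33664 probes did.

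**Figure D5:**
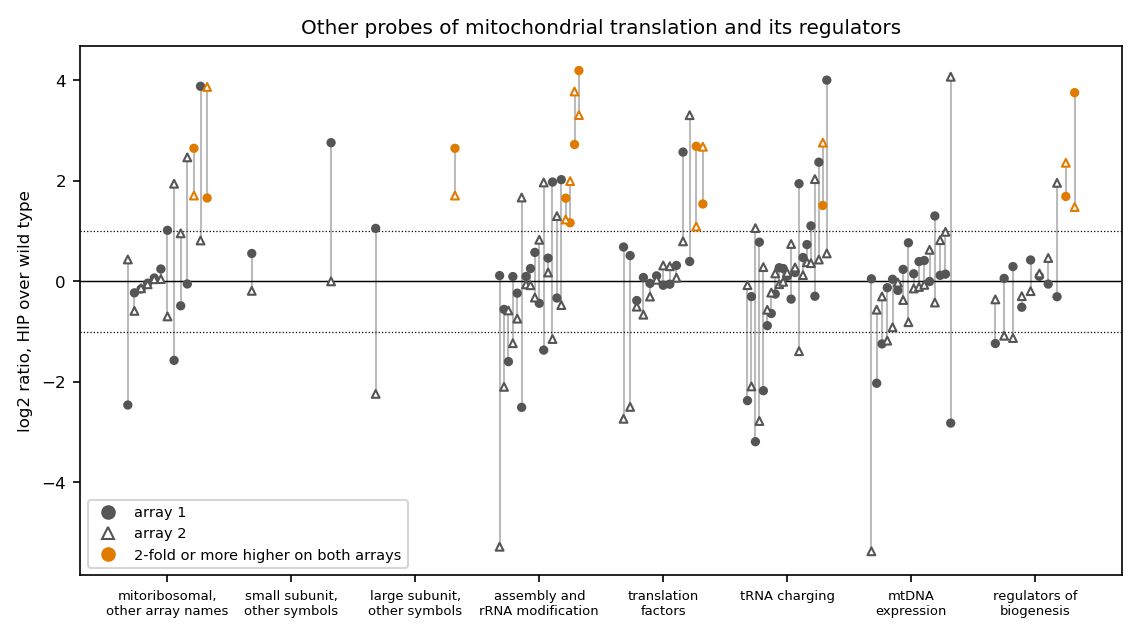
Log2 ratio of HIP over wild type (vertical axis) for each tested probe of the other mitoribosomal names and the 7 pathway lists; filled circles are array 1, open triangles array 2, grey lines join a probe's values and dotted lines mark 2-fold. Orange probes, 2-fold higher on both arrays, occur in 6 of the 8 groups shown and reach 4.20 for Mrm1.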

How the data were processed

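Per the labels, mRNA from lysed cell samples was converted to cDNA, amplified by a global PCR method and labelled, and PCR can change transcript proportions. Per the file headers, the authors quantified the arrays (Agilent design 014879) with Feature Extraction 9.5.1.1. The deposited files give spot and background intensity as scanned, a processed signal intensity that is background-subtracted and dye-normalized, and a log10 ratio of the processed signals, Cy5 over Cy3. The deposited table of the whole series listed 62 member probes, and 54 equalled that log10 ratio on both arrays within 0.001 after conversion to log2. The rest belonged to genes with several probes, and on each array their values lay between the ratios of those probes. Both arrays are on 1 slide and in 1 scan.

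Here, limma 3.58.1 in R 4.3.3 applied normexp (offset 50), loess within arrays and averaging of replicate spots. Control spots and spots marked as outliers were left out. A probe was kept if 1 dye or both were well above background on each array (33664 of 41012 probes, 82.1%). Each probe's log2 ratio, computed from the deposited intensities, was tested against 0 (lmFit, eBayes, two-sided, prior degrees of freedom 1.69, prior SD 0.68) with Benjamini-Hochberg adjustment at 0.05. Levels of single extracts came from quantile normalization of the average signal. Spread is the SD over 2 arrays, whose number limits the precision. Alternatives were the scanner's ratio, the authors' deposited table, other normalizations, filters and priors, separate channels, 1 probe per gene and single arrays.

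Named members were those 2-fold apart the same way, those with several tested probes, the 5 highest and 5 lowest and the 3 closest to 0 among probes well above background in both dyes, and landmarks of the ribosome (the tested landmarks were Mrps12, Mrpl12, Mrps5 and Mrpl3). Pathway genes were named where 2-fold apart the same way. All other genes named, and the grouping by structural role, were chosen after their values were seen. The members and lists were chosen with earlier results of these data known. Gene names were updated with a RefSeq table (GRCr8). Only distances between probes are printed, because the build of their positions was not named in the labels or file headers.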

Additional observations from a re-analysis of the deposited data

How the results depend on the processing

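The count of member probes past the limma test was 0 with the scanner's ratio, median centring, no normalization, no filter on dim probes, both dyes well above background, outlier spots kept, a trended or robust prior, the brightest probe per gene and separate channels. Single arrays, the authors' deposited table and leaving out Mrpl17 gave no test. Other values moved. With the scanner's processed ratio, 4 member probes were 2-fold higher on both arrays, 1 lower and 12 opposite (5.73%, 4.68% and 10.8% of all probes). The small subunit median was then -0.21. With median centring, which left the median of all probes at 0.15 and 0.24 on arrays 1 and 2, values relative to the median of all probes were -0.027 for the members and -0.49 for the small subunit. Without normalization, where these shifts were 0.78 and 1.19, the relative medians were the same by construction. In that setting 10 member probes were 2-fold higher (27.0% of all probes) and 4 opposite (5.06%). Keeping probes well above background in both dyes gave a small subunit median of -0.024, as did the brightest probe per gene, which also left 1 probe 2-fold higher. Without Mrpl17, a choice made after seeing the data, 0 were higher. On single arrays, 10 to 13 member probes were 2-fold higher (13.8% to 15.1% of all probes) and 8 to 9 lower (12.9% to 16.6%), and the small subunit median was 0.020 to 0.027. The cause was not tested.

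Signs of mean ratios turned for 2 of 26 named probes with the scanner's ratio, 6 of 26 relative to the median of all probes under both median centring and no normalization, and 3 of 21 in the authors' deposited table. With the scanner's ratio these were Mrpl40 probe 1 (0.15) and Mrps5 (-0.21). Relative to the median they were Mrpl18 (0.086), Mrpl3 (-0.39), Mrpl40 probe 1 (0.35), Mrpl45 (-0.16), Mrpl54 (0.60) and Mrps5 (-0.47). In the authors' deposited table they were Mrpl40 probe 1 (0.16), Mrps27 probe 2 (-0.21) and Mrps5 (-0.21). The deposited Mrpl40 and Mrps27 values differed from the scanner's ratios of these probes. On each array they lay between the ratios of the gene's 2 probes, so they may not be values of a single probe. Without array 1, 7 of 26 turned and without array 2, 6 of 26. These single-array values ranged from -3.01 to 2.18 for Mrpl18, -1.25 to 1.22 for Mrpl40 probe 1, -2.88 to 4.14 for Mrpl40 probe 2, -0.82 to 3.10 for Mrpl41 probe 1, -2.94 to 1.87 for Mrpl42, -1.01 to 1.30 for Mrpl44, -2.13 to 1.98 for Mrpl54, -0.22 to 3.91 for Mrps18c, -0.16 to 0.027 for Mrps25, -0.70 to 0.22 for Mrps27 probe 1, -0.88 to 0.92 for Mrps27 probe 2, -1.16 to 5.55 for Mrps36 and -0.086 to 0.18 for Mrps5. Mrpl17, Mrps12, Mrpl30 and Mrps23 kept their sign in each of these settings. So did Mrpl2, Mrpl12, Mrpl21, Mrpl22, Mrpl38 and Mrpl41 probe 2. A kept sign was thus not particular to large ratios, as the mean for Mrpl21 was -0.10. No paired analysis was possible beyond the test of the ratios itself, because each ratio already pairs the extracts of an array. Dim probes, most frequent in wild type 2, limit the ratios towards 0, since the offset of 50 shrinks them.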
